A study of Mus musculus with 6 samples.

Results

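The genes described here encode the signal-transducing chains of the T cell antigen receptor and the proteins that act on them at the membrane. They are the 4 chains of the CD3 complex (Cd3d, Cd3e, Cd3g and Cd247), the coreceptor Cd4, the costimulatory receptor Cd28, the kinases Lck and Zap70, and the adaptor Lat. They were taken by gene symbol from a table of 24470 mouse genes, and all 9 were found and passed the filter on low counts, with between 3637 and 19686 reads in every library. Naive CD4+ T cells, helper cells that have not met antigen, from male C57BL/6J mice were isolated on magnetic beads from spleen and the lymph nodes that drain the skin. The groups were 3 samples cultured with recombinant mouse CCL19, a ligand of the chemokine receptor CCR7, and 3 samples cultured without a chemokine (no CCL19). Both groups were stimulated for 6 h in 200 µL on wells coated with anti-CD3 and anti-CD28 at 1 µg/mL, so every sample met antibodies against CD3 and CD28. Engagement of the receptors was not measured here. No unstimulated sample was analysed here. The sources used here do not give the CCL19 concentration, the number of mice or any pooling.

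The antigen-binding chains of the T cell receptor have short tails and signal through the CD3 chains, whose cytoplasmic tails carry tyrosine motifs called ITAMs. LCK, a kinase of the Src family that binds the tail of CD4, phosphorylates these motifs. ZAP70 then docks on them, is activated and phosphorylates LAT, a membrane adaptor on which the complexes for calcium and Ras signalling assemble. CD28 supplies the costimulatory signal that naive T cells need together with the receptor signal. The genes of the antigen-binding chains were not analysed here.

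The promoters of the 4 CD3 chain genes are shown because the chains are built into a common receptor. The transcript of Cd3e varied less between libraries than those of Cd3d, Cd3g and Cd247. A link between these sequences and the transcript levels was not tested. Each sequence is the 250 bases before the RefSeq start site on the gene's own strand in GRCm38.p6, 5′ to 3′. Capitals mark GGAA or its reverse complement TTCC, the core letters bound by ETS-family factors.
Cd3d, chr9:44981536-44981785, plus strand: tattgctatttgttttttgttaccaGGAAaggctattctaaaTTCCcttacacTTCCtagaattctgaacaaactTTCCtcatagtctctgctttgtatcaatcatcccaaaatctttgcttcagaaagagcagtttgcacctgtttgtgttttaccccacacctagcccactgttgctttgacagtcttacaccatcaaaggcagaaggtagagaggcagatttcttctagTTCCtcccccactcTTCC
Cd3e, chr9:45009612-45009861, minus strand: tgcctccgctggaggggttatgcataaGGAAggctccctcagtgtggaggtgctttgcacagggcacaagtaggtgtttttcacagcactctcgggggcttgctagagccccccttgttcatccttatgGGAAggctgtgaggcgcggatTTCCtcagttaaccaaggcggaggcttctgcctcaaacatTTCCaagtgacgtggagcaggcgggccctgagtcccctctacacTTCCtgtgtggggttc
Cd3g, chr9:44980432-44980681, minus strand: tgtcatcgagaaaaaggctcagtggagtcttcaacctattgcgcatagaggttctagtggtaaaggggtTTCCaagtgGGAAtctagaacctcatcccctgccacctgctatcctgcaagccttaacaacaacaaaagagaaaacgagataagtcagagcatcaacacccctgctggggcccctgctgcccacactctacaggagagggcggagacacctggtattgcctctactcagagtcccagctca
Cd247, chr1:165788431-165788680, plus strand: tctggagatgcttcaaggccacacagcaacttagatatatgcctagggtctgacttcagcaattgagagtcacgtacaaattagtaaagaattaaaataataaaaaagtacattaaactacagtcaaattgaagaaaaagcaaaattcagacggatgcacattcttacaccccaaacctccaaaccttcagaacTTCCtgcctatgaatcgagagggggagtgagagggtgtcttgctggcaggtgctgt
GGAA was found on either strand 6 times before Cd3d, 5 times before Cd3e, 2 times before Cd3g and 1 time before Cd247. Of 32851 mouse promoters of the same length, 93.4% held at least 1 match, with a mean of 2.91 matches. The TATA box letters TATAAA, searched on both strands, were in none of these 4 sequences and in 12.4% of all promoters. The E-box CANNTG, a palindrome counted once, was found 1 time before Cd3d, 1 time before Cd3e, 3 times before Cd3g and 2 times before Cd247, and at least 1 time in 66.2% of all promoters. The RUNX core TGTGGT, searched on both strands, was in none of the 4 sequences and in 14% of all promoters.

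The CCL19 libraries held between 16978736 and 26980697 counts, and the no-CCL19 libraries held between 18203667 and 27429898. CCL19 replicate 3 was nearer to no-CCL19 replicate 3 (chi-square per degree of freedom 4.89, the lowest of all pairs) than to the other CCL19 libraries (10.9 and 15.4). For each of the 9 genes, the lowest and highest estimates with a library left out are therefore given too. The labels do not state whether replicates were separate mice or separate cultures, and the spread on which each p-value rests may be technical. The defining T cell genes were present in all libraries, and those of CD8+ T cells were low, with Cd8a between 1.56 and 2.23 CPM, the read count scaled to library size by TMM, and Cd8b1 between 10.8 and 15 CPM. Their sum lay between 12.4 and 17.2 CPM with CCL19 and between 14.6 and 15 CPM without it. The summed markers of B cells lay between 14.3 and 19 CPM with CCL19 and between 17.8 and 21 CPM without it, and those of myeloid cells between 9.27 and 14.5 CPM and between 9.77 and 15.6 CPM. The groups overlapped in each of these sums, and the part of other cells in the results was not tested.

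No gene among the 9 passed the test for a change with CCL19. edgeR's quasi-likelihood test called 0 of 9 at a Benjamini-Hochberg adjusted p under 0.05, against 0% of the 11666 genes tested. The lowest edgeR adjusted p of any gene was 0.0505, just above that threshold. At an unadjusted p under 0.05 edgeR gave 1 of the 9, Cd247, which was lower. The share was 27.5% of all tested genes in either direction and 13% with CCL19 lower. DESeq2 also called 0 of 9, against 12.2% of 9613 genes with an adjusted p. limma-voom called 0 of 9, against 0% of all genes, and gave 1 at an unadjusted p under 0.05, against 27.7%. Its lowest adjusted p over all genes was 0.051. None of the 9 is in the authors' deposited table of changed genes, which holds 4.77% of all 24470 genes listed, with or without reads. That table has 630 higher and 538 lower genes, the same numbers that DESeq2 called here, so it is not separate support. The log2 fold changes, CCL19 over no CCL19, ran between -0.24 and 0.11 with a median of -0.04, beside a median of 0 over all tested genes. The estimate was below 0 for 7 of the 9, beside 50.2% of all tested genes. That count was 8 without CCL19 replicate 3, 6 with an offset fitted on GC content and transcript length and 5 without CCL19 replicate 2. The lowest bound of the 9 separate 95% intervals was 0.736-fold, for Cd247, and the highest was 1.25-fold, for Zap70. In these bulk samples fewer cells of a type and less RNA per cell cannot be told apart.

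**Figure D1:**
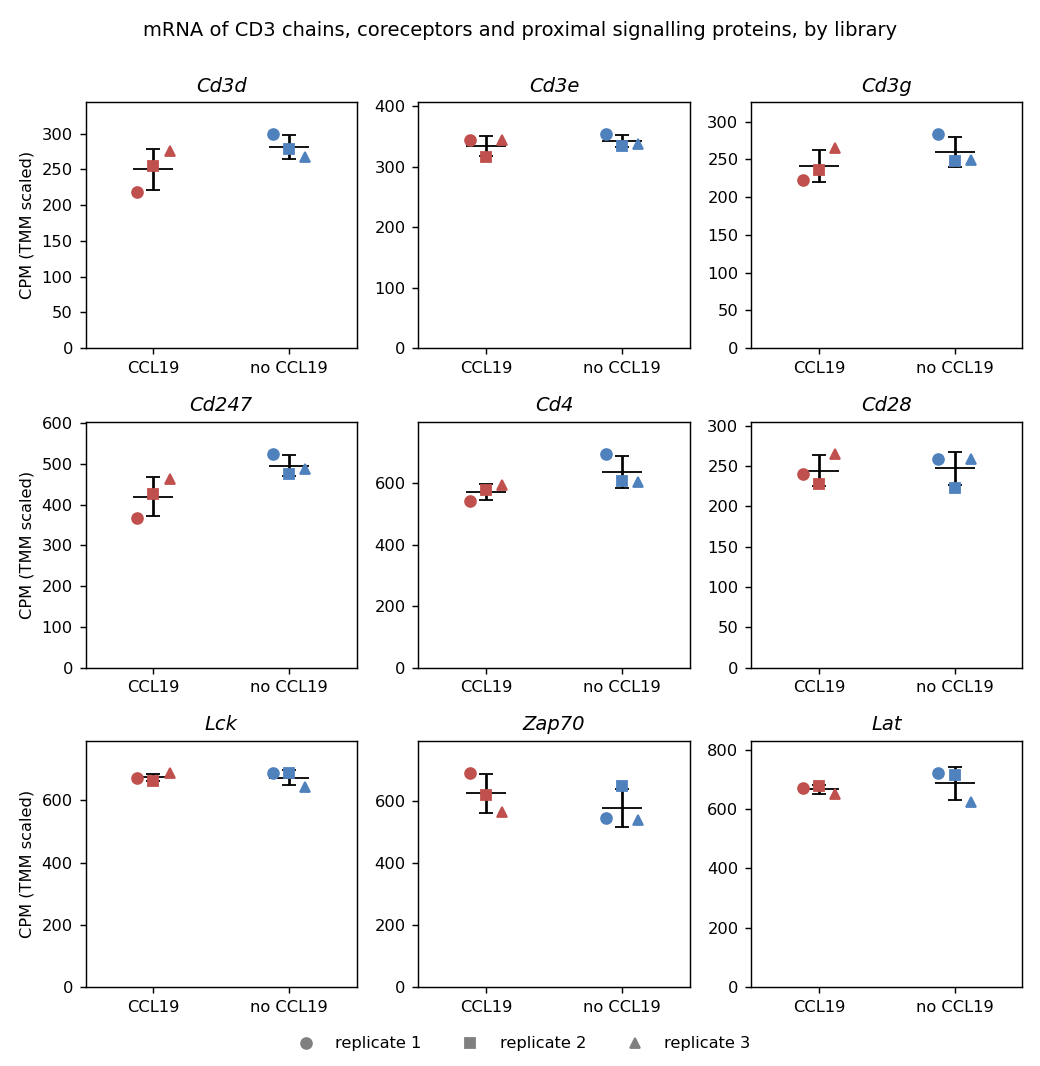
CPM scaled by TMM (vertical axes, each starting at 0) of the 9 genes in the 3 CCL19 and 3 no-CCL19 libraries, with the mean and SD of each group in black and the replicate number as the marker shape. The groups overlap for 7 genes and lie apart for Cd247 and Cd4, where all CCL19 libraries are lower.

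Cd247 encodes the zeta chain, which carries more ITAMs than any other chain of the receptor (mm10 chr1:165788681-165871153, plus strand). It stood at 368, 426 and 464 CPM in the CCL19 libraries, against 525, 476 and 487 CPM in the no-CCL19 libraries. All 3 CCL19 libraries lay below all 3 without CCL19, and CCL19 replicate 1 was the lowest. The mean was 419 ± 48.5 CPM with CCL19 and 496 ± 25.8 CPM without it (SD, n = 3 each). The log2 fold change was -0.24 ± 0.09 (SE), with a 95% interval of -0.44 to -0.04 and an edgeR adjusted p of 0.117. DESeq2 gave an adjusted p of 0.0548. With CCL19 replicate 3 left out, Cd247 passed in edgeR (log2 fold change -0.33, adjusted p = 0.0358) and in DESeq2 (-0.32, adjusted p = 0.00672). In those fits edgeR called 6.97% and DESeq2 8.12% of all genes lower. Without CCL19 replicate 1 the log2 fold change of Cd247 was -0.16, with an edgeR adjusted p of 0.369. The edgeR values of -0.33 and -0.16 were the lowest and highest estimates with a library left out. Exons of Cd247 share 3007 bp with Pou2f1 on the opposite strand in GENCODE M21. The sources used here do not give the strand setting of the counting, and reads from the shared stretch are uncertain. Pou2f1 had a log2 fold change of -0.01 (edgeR adjusted p = 0.957).

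Cd3d, Cd3g and Cd3e encode the delta, gamma and epsilon chains and lie within 40.0 kb on chromosome 9, with the start sites of Cd3g and Cd3d facing away from each other across 1354 bp. Cd3d (chr9:44981786-44987052, plus strand) stood at 219, 255 and 276 CPM in the CCL19 libraries, against 299, 278 and 267 CPM without CCL19. CCL19 replicate 3 lay above no-CCL19 replicate 3, so the groups overlapped, and the log2 fold change was -0.17 ± 0.09 (SE, edgeR adjusted p = 0.243). Cd3g (chr9:44969572-44980431, minus strand) stood at 223, 236 and 265 CPM in the CCL19 libraries, against 283, 248 and 249 CPM without CCL19. The groups overlapped through CCL19 replicate 3 in this gene too, and the log2 fold change was -0.11 ± 0.09 (SE, edgeR adjusted p = 0.439). Cd3e (chr9:44998743-45009590, minus strand), whose chain pairs with either delta or gamma, was the steadiest of the 4. It stood at 343, 315 and 344 CPM in the CCL19 libraries, against 353, 334 and 338 CPM without CCL19. Its 6 libraries were interleaved, with a log2 fold change of -0.03 ± 0.08 (SE, edgeR adjusted p = 0.817). With a library left out, the edgeR estimate of Cd3d lay between -0.25 without CCL19 replicate 3 (adjusted p = 0.0833) and -0.09 without CCL19 replicate 1 (adjusted p = 0.653). That of Cd3g lay between -0.19 without CCL19 replicate 3 (adjusted p = 0.17) and -0.04 without no-CCL19 replicate 1 (adjusted p = 0.858), and was -0.06 without CCL19 replicate 1. That of Cd3e lay between -0.06 without CCL19 replicate 1 or 3 and 0.01 without CCL19 replicate 2. Exons of Cd3e share 135 bp with an antisense transcript in GENCODE M21 that is not a row of the deposited table.

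**Figure D2:**
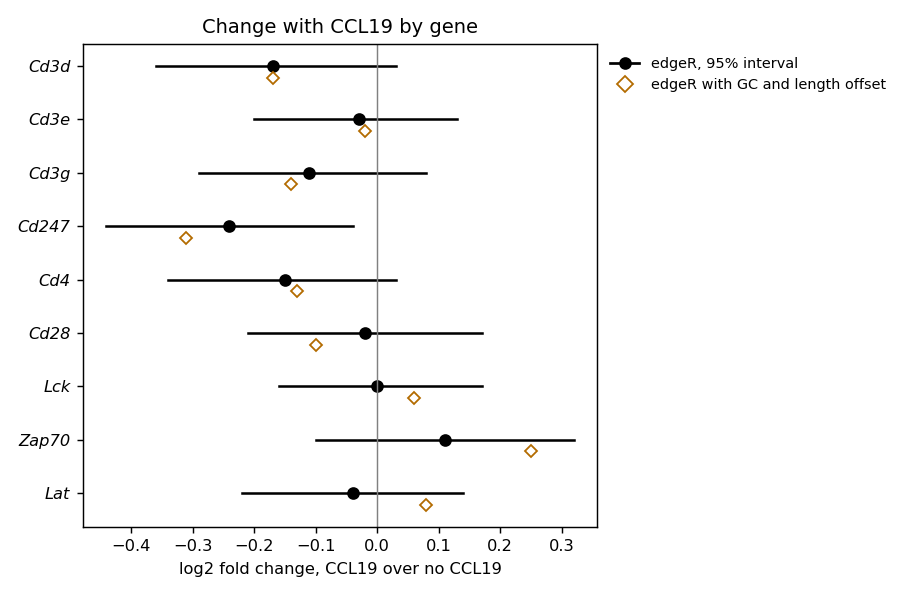
Log2 fold change, CCL19 over no CCL19 (horizontal axis), of each gene, with the 95% interval of the edgeR fit as a line and the estimate after an offset fitted on GC content and transcript length as an open diamond. The interval of Cd247 alone leaves out 0, and the offset moves Zap70 to 0.25 and Cd247 to -0.31.

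Summed over the 4 CD3 chains, the libraries held 1153, 1232 and 1349 CPM with CCL19 and 1460, 1337 and 1341 CPM without it. CCL19 replicate 3 again lay among the no-CCL19 libraries. Over the 9 genes together the share of all counts lay between 0.388% and 0.412% with CCL19 and between 0.406% and 0.444% without it.

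Cd4, the coreceptor for MHC class II and the marker by which the cells are defined (chr6:124864693-124888209, minus strand), stood at 542, 576 and 592 CPM in the CCL19 libraries, against 695, 606 and 603 CPM without CCL19. All 3 CCL19 libraries were lower, but the nearest values, in replicate 3 of each group, were 592 CPM with CCL19 and 603 CPM without it. The log2 fold change was -0.15 ± 0.09 (SE, 95% interval -0.34 to 0.03, edgeR adjusted p = 0.257). With a library left out it lay between -0.19, without CCL19 replicate 3 or no-CCL19 replicate 2 or 3, and -0.08, without no-CCL19 replicate 1 (edgeR adjusted p = 0.696). The groups did not overlap in 2 of the 9 genes, Cd247 and Cd4, against 29.8% of all tested genes. In both CCL19 was lower, as in 14.5% of all tested genes. Groups that did not overlap with CCL19 higher were found in none of the 9 and in 15.3% of all tested genes. Cd28 (chr1:60746388-60773359, plus strand) stood at 240, 227 and 265 CPM in the CCL19 libraries, against 259, 223 and 259 CPM without CCL19. The highest library was from the CCL19 group and the lowest from the no-CCL19 group. The log2 fold change was -0.02 ± 0.09 (SE, edgeR adjusted p = 0.911), with an interval of 0.867-fold to 1.12-fold. With a library left out it lay between -0.09, without CCL19 replicate 3 or no-CCL19 replicate 2, and 0.03, without CCL19 replicate 2.

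Lck, which encodes the kinase that phosphorylates the CD3 chains (chr4:129548344-129573641, minus strand), varied least of the 9. It stood at 673, 663 and 687 CPM in the CCL19 libraries, against 687, 688 and 645 CPM without CCL19. The range over the 6 libraries was 0.09 on the log2 scale, and only 1.74% of tested genes with a mean log2 CPM of at least 5 had a range as small or smaller. The log2 fold change was 0 ± 0.08 (SE), and its 95% interval ran from 0.894-fold to 1.12-fold. With a library left out the log2 fold change lay between -0.03 without no-CCL19 replicate 3 and 0.02 without CCL19 replicate 2 or no-CCL19 replicate 1. Zap70 (chr1:36761798-36782820, plus strand) had the highest estimate of the 9, with 689, 620 and 564 CPM in the CCL19 libraries against 545, 649 and 538 CPM without CCL19. The groups overlapped, since no-CCL19 replicate 2 lay above CCL19 replicates 2 and 3. The log2 fold change was 0.11 ± 0.10 (SE, edgeR adjusted p = 0.487), and it was between 0.03 without CCL19 replicate 1 and 0.20 without no-CCL19 replicate 2 when a library was left out. Lat (chr7:126363827-126369568, minus strand) stood at 671, 680 and 650 CPM in the CCL19 libraries, against 722, 717 and 623 CPM without CCL19. The CCL19 libraries lay inside the range of the others, with a log2 fold change of -0.04 ± 0.08 (SE, edgeR adjusted p = 0.778). With a library left out it lay between -0.11 without no-CCL19 replicate 3 and -0.01 without no-CCL19 replicate 1.

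The median log2 fold change of all tested genes was 0.12 in the lowest of 10 classes of GC content (29.6% to 41.8%) and -0.15 in the highest (58.1% to 82.2%). Zap70, with 59.6% GC, lies in the highest class and Lat, with 57.9%, in the class below it, whose median was -0.11. Cd28, with 41.2%, lies in the lowest class, and Cd247, with 44.4%, in the third, whose median was 0.05. When the offset fitted on GC content and transcript length together was added, the edgeR log2 fold change was 0.25 for Zap70, 0.08 for Lat, 0.06 for Lck, -0.10 for Cd28 and -0.31 for Cd247. None of these passed in edgeR, where the lowest adjusted p was 0.0975, for Cd247. In DESeq2 with the same offset Cd247 passed (log2 fold change -0.30, adjusted p = 0.0187) and Zap70 did not (0.25, adjusted p = 0.0578). That fit called 6.87% of all genes higher and 3.43% lower. GC content and length were not fitted apart, and their separate parts in these moves were not tested.

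**Figure D3:**
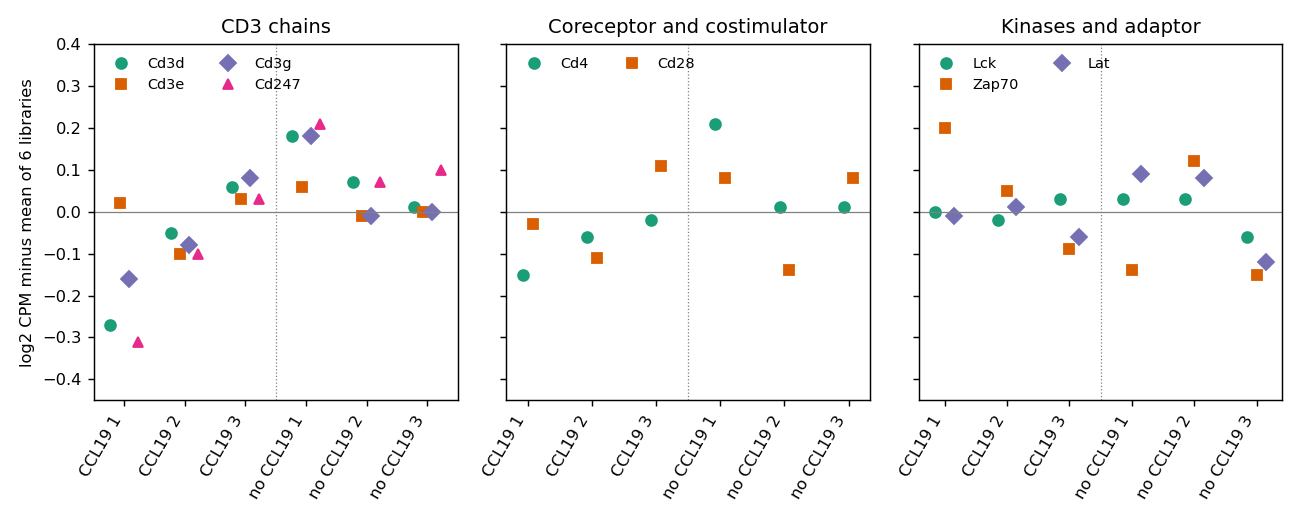
Log2 CPM minus the gene's mean over the 6 libraries (vertical axis) for each library (horizontal axis), in panels of CD3 chains, coreceptor and costimulator, and kinases and adaptor. Cd3d, Cd3g, Cd247 and Cd4 are lowest in CCL19 replicate 1 and highest in no-CCL19 replicate 1, and Zap70 is highest in CCL19 replicate 1.

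The genes did not share a common pattern over the libraries. No-CCL19 replicate 1 was the highest library for 6 of the 9 genes, and CCL19 replicate 1 was the lowest for 4. As a measure of likeness, the root mean square difference between the centred log2 CPM of a pair of genes was taken over the 6 libraries. The nearest pair was Cd3d and Cd247, with 0.045, followed by Cd3g and Cd4, with 0.047, and Cd3e and Lck, with 0.047. Genes that vary little are near each other by this measure without sharing a pattern. Lck and Cd3e had the smallest ranges of the 9, at 0.09 and 0.16 on the log2 scale. On the same stretch of chromosome 9, Cd3d differed by 0.058 from Cd3g and by 0.136 from Cd3e. Cd247 and Zap70, whose proteins bind each other, were the pair farthest apart, with 0.282.

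By the same measure, among 5839 other genes with a mean log2 CPM of at least 5, those nearest to the mean profile of the 4 CD3 chains were Fam53a (0.01), Tubgcp2 (0.019) and Ccndbp1 (0.02). The nearest to Cd247 were Shisa5 (0.02), Ctsa (0.021) and Gba2 (0.021), and their log2 fold changes were -0.22, -0.24 and -0.25. Genes chosen for likeness over the same 6 libraries must have a fold change near that of Cd247. These values are therefore not separate support. The nearest to Lck were Cyb5r3 (0.014), Babam1 (0.019) and Trmt2a (0.019). The nearest to Zap70 were Git1 (0.018), Mllt1 (0.02) and Zswim4 (0.021), with 58.9%, 59.5% and 58.4% GC beside 59.6% for Zap70. The nearest to Cd28 were Eps15 (0.022), Wwp1 (0.024) and Kdm6a (0.026), with 41.2%, 39.6% and 42.5% GC beside 41.2% for Cd28. The genes nearest to Cd247, with 44.4% GC, had 55.1%, 54.5% and 56.5%. The part of GC content in these likenesses was not tested. The nearest to Cd3d was Pdlim2, to Cd3e Elk3, to Cd3g Tubgcp2, to Cd4 Abca3 and to Lat Cope, at distances of 0.022, 0.016, 0.013, 0.02 and 0.017.

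Ratios of raw counts within a library, which need no scaling between libraries, were compared for 4 pairs. They still carry any shift that depends on GC content, and no offset was applied to them. GC content was 50.5% for Cd3e, 44.4% for Cd247, 52% for Cd4 and 41.2% for Cd28. It was 59.6% for Zap70 and 54.3% for Lck. The ratio of Cd247 to Cd3e was 1.07, 1.35 and 1.35 in the CCL19 libraries, against 1.49, 1.42 and 1.44 without CCL19. All CCL19 libraries were lower, with CCL19 replicate 1 well below the rest. The mean log2 ratio was 0.32 with CCL19 and 0.54 without it, a difference of -0.21 (2-sided exact permutation p = 0.1, as small as 3 libraries against 3 can give, and 0.4 adjusted over the 4 ratios). Without CCL19 replicate 1 the difference was -0.10. The ratio of Zap70 to Lck was 1.02, 0.935 and 0.821 with CCL19, against 0.793, 0.944 and 0.835 without it. The groups overlapped, and the log2 difference was 0.11 (exact permutation p = 0.5), between 0.04 without CCL19 replicate 1 and 0.19 without CCL19 replicate 3. The ratio of Cd4 to Cd3e was 1.58, 1.83 and 1.72 with CCL19, against 1.97, 1.81 and 1.78 without it, a log2 difference of -0.12 (exact permutation p = 0.3), between -0.17 without CCL19 replicate 2 and -0.06 without CCL19 replicate 1. The ratio of Cd28 to Cd3e was 0.7, 0.718 and 0.769 with CCL19, against 0.734, 0.666 and 0.768 without it, a log2 difference of 0.01 (exact permutation p = 0.9), between -0.04 without no-CCL19 replicate 2 and 0.06 without no-CCL19 replicate 3.

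Levels can be compared between genes only per length of transcript. The lengths came from GENCODE M21, where Cd28 starts at 60716800 and Cd247 ends at 165877277. In the deposited coordinates Cd28 starts at 60746388 and Cd247 ends at 165871153. The effect of this difference on their levels was not tested. In CPM per kilobase of the union of all annotated exons, the median over the 6 libraries was 244 for Lat, 232 for Lck, 198 for Zap70, 150 for Cd3d, 148 for Cd4, 88.2 for Cd247, 83.4 for Cd3e, 76.1 for Cd3g and 40.7 for Cd28. Neighbours in this order were separated, with no overlap of their ranges over libraries, only between Zap70 and Cd3d, between Cd4 and Cd247, and between Cd3g and Cd28. With the union of exons, Lat, Lck and Zap70 therefore followed each other without a gap, as did Cd247, Cd3e and Cd3g. The order of the CD3 chains depended on the length used. Per kilobase of the longest protein-coding transcript, a length chosen after the data were seen, Cd3g (243) and Cd3e (233) stood above Cd3d (168) and Cd247 (159). Lat was at 547 and Cd28, at 57.4, was the lowest on this length too.

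**Figure D4:**
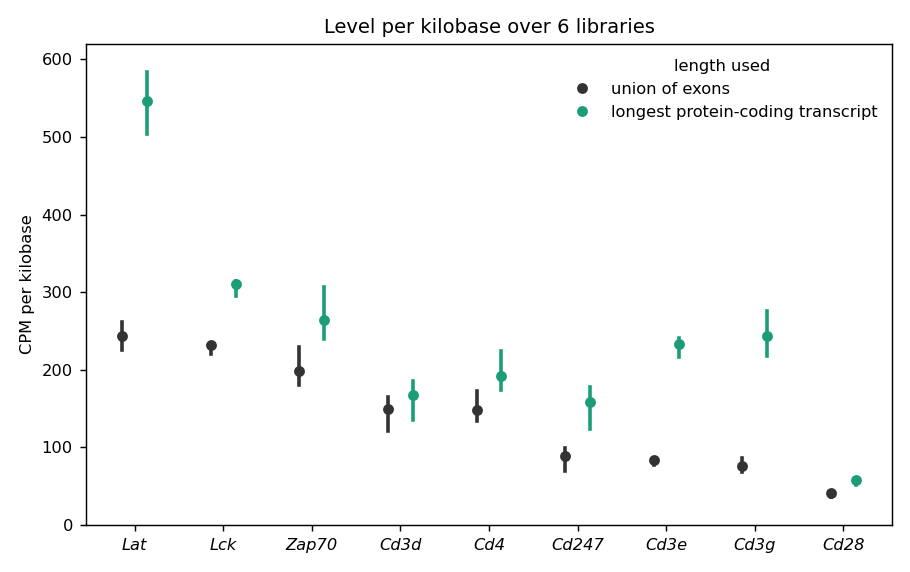
Level in CPM per kilobase (vertical axis, from 0) of the 9 genes, as the median (point) and range (line) over the 6 libraries, for 2 ways of measuring transcript length. Lat is highest and Cd28 lowest with either length, and Cd3g, at 76.1 with the union of exons, is at 243 with the coding transcript.

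Of 41 other genes of proximal receptor signalling, all were tested. edgeR called none of them by adjusted p, and its unadjusted p was under 0.05 for 7 higher and 12 lower ones, against 14.5% and 13% of all tested genes. DESeq2 called 5 higher, against 6.55% of all genes with an adjusted p, and 3 lower, against 5.6%. limma-voom called none. The median log2 fold change was -0.10 over the list, beside 0 over all tested genes. With the GC and length offset DESeq2 called 7 of the 41 higher and 0 lower, against 6.87% of all genes higher and 3.43% lower in that fit. Without CCL19 replicate 2 it called 0 of the 41, against 0.699% of all genes higher and 0.836% lower. Without CCL19 replicate 3 edgeR called 4 higher and 7 lower, against 6.5% and 6.97% of all genes, and DESeq2 called 7 higher and 8 lower, against 9.2% and 8.12%.

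Among the 23 adaptors and enzymes that act after the receptor, DESeq2 called 1 higher and 1 lower, against 6.55% and 5.6% of all genes with an adjusted p. The higher was Lcp2, which encodes SLP-76, the adaptor that is joined to phosphorylated LAT. Lcp2 stood at 920, 821 and 774 CPM in the CCL19 libraries, against 632, 721 and 698 CPM without CCL19 (log2 fold change 0.29 ± 0.09, DESeq2 adjusted p = 0.0159, edgeR adjusted p = 0.07). The lower was Grap2, which encodes GADS, the protein that links SLP-76 to LAT. It stood at 354, 389 and 437 CPM in the CCL19 libraries, against 542, 432 and 458 CPM without CCL19 (log2 fold change -0.28 ± 0.10, DESeq2 adjusted p = 0.0457, edgeR adjusted p = 0.104). The groups did not overlap for Lcp2 and overlapped for Grap2. Of the 23 adaptors and enzymes, 3 higher and 3 lower had groups apart, against 15.3% and 14.5% of all tested genes. The DESeq2 call of Lcp2 was lost without CCL19 replicate 1 (adjusted p = 0.142), CCL19 replicate 2 (0.0891, log2 fold change 0.31) or no-CCL19 replicate 1 (0.0969). That of Grap2 was lost without CCL19 replicate 1 (adjusted p = 0.233), CCL19 replicate 2 (0.184, log2 fold change -0.27), no-CCL19 replicate 1 (0.245) or no-CCL19 replicate 3 (0.06), and also with the offset (-0.26, adjusted p = 0.0765). The kinase genes Fyn, Txk and Tec did not pass in either tool, with log2 fold changes of 0.19 for Fyn, -0.21 for Txk and -0.34 for Tec.

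**Figure D5:**
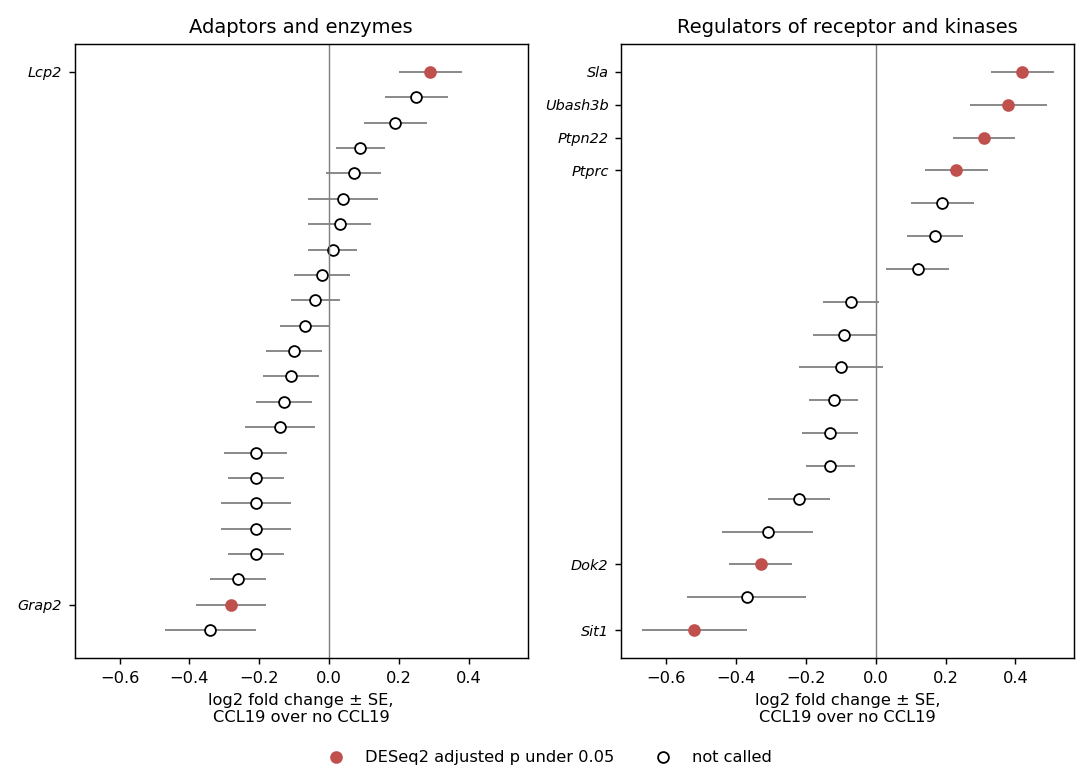
Log2 fold change ± SE, CCL19 over no CCL19 (horizontal axes), of the 41 other proximal signalling genes, in panels of adaptors and enzymes and of regulators. Filled, named points mark the 8 genes called by DESeq2, 5 of them above 0 and 3 below, and edgeR called none.

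Among the 18 regulators of receptor and kinase activity, DESeq2 called 4 higher and 2 lower, against the same 6.55% and 5.6% of all genes. Sla encodes SLAP, an adaptor that lowers receptor and zeta chain levels on thymocytes. It stood at 358, 355 and 326 CPM in the CCL19 libraries, against 221, 279 and 276 CPM without CCL19 (log2 fold change 0.42 ± 0.09, DESeq2 adjusted p = 0.00254, edgeR adjusted p = 0.0505). Ubash3b encodes STS-1, a phosphatase that acts on ZAP70. It stood at 407, 354 and 302 CPM in the CCL19 libraries, against 248, 301 and 270 CPM without CCL19 (log2 fold change 0.38 ± 0.11, DESeq2 adjusted p = 0.0123, edgeR adjusted p = 0.0606). Ptpn22, a phosphatase of LCK and ZAP70, stood at 539, 477 and 475 CPM with CCL19, against 360, 416 and 429 CPM without it (log2 fold change 0.31 ± 0.09, DESeq2 adjusted p = 0.015, edgeR adjusted p = 0.064). For these 3 genes the groups did not overlap. Of the 18 regulators this held for 4 higher and 4 lower, against 15.3% and 14.5% of all tested genes. The DESeq2 call of Sla was lost without CCL19 replicate 2 (log2 fold change 0.40, adjusted p = 0.0506). That of Ubash3b was lost without CCL19 replicate 1 (adjusted p = 0.142), CCL19 replicate 2 (0.0887, log2 fold change 0.38) or no-CCL19 replicate 1 (0.0887), and that of Ptpn22 without the same libraries (0.135, 0.0723 and 0.0952), with log2 fold changes of 0.24, 0.34 and 0.23.

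Ptprc, which encodes CD45, the phosphatase that keeps LCK ready for activation, stood at 2690, 2450 and 2520 CPM with CCL19, against 2020, 2140 and 2360 CPM without it (log2 fold change 0.23 ± 0.09, DESeq2 adjusted p = 0.0416, edgeR adjusted p = 0.11). With the offset it did not pass (0.17, DESeq2 adjusted p = 0.0903), nor without CCL19 replicate 1 (adjusted p = 0.21), CCL19 replicate 2 (0.116, log2 fold change 0.26), no-CCL19 replicate 1 (0.174) or no-CCL19 replicate 2 (0.106). The lower genes were Dok2, a docking protein that restrains receptor signals, and Sit1, a transmembrane adaptor. Dok2 stood at 38.1, 42 and 41.2 CPM in the CCL19 libraries, against 55.1, 52.1 and 45.7 CPM without CCL19 (log2 fold change -0.33 ± 0.09, DESeq2 adjusted p = 0.0187, edgeR adjusted p = 0.0542). Sit1 stood at 9.87, 11.3 and 15.6 CPM in the CCL19 libraries, against 20, 17.4 and 15.5 CPM without CCL19 (log2 fold change -0.52 ± 0.15, DESeq2 adjusted p = 0.0264, edgeR adjusted p = 0.0666). CCL19 replicate 3 lay just above the lowest no-CCL19 library for Sit1, and the groups did not overlap for Dok2. With the offset neither passed, at -0.22 for Dok2 (DESeq2 adjusted p = 0.0715) and -0.42 for Sit1 (DESeq2 adjusted p = 0.0663). The call of Dok2 was lost without CCL19 replicate 1 (adjusted p = 0.126), CCL19 replicate 2 (0.0903, log2 fold change -0.36) or no-CCL19 replicate 2 (0.0689), and that of Sit1 without CCL19 replicate 2 (0.163, log2 fold change -0.46) or no-CCL19 replicate 2 (0.0656). DESeq2 gave no adjusted p to Sit1 without CCL19 replicate 1, nor to either gene without no-CCL19 replicate 1.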

How the data were processed

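For 6 mRNA libraries the authors deposited raw counts of reads per gene, with mm10 coordinates per the file headers. Reads were processed with STAR 2.5 and featureCounts 1.5.0-p1 of Subread, and DESeq2 1.28.1 was used, per the submitters' processing notes. The sources used here do not give the annotation release or how multiply matching reads were handled. The authors' deposited list gives directions in words, with no threshold.

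Counts were tested in edgeR 4.0.16 by quasi-likelihood after filterByExpr and TMM scaling, in R 4.3.3, with Benjamini-Hochberg adjustment over the 11666 tested genes and a threshold of 0.05. Groups came from the sample titles. DESeq2 1.42.0 and limma 3.58.1 (voom) were alternatives, beside other scaling, filters, a robust prior, a replicate block, left-out libraries and an offset from natural splines of 5 degrees of freedom on GC content and length. Log2 CPM used a prior count of 2. Lengths and GC content came from GENCODE M21, whose assembly, GRCm38, is mm10, for 99.4% of tested genes. Where a gene has one, the longest protein-coding transcript was used. Promoters came from RefSeq. The 9 genes and the lists were chosen with earlier results of these data known. Of the 41 other signalling genes, the rule named the called ones or, with none called by edgeR, the 3 of smallest p in each direction. Lcp2, Grap2 and Ptprc were added because DESeq2 called them, and the kinases Fyn, Txk and Tec after their values were seen. A gene that the rule named is not reported here. The tests were tried on simulated counts. Plots used Python 3.11.15 and matplotlib 3.10.9.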

Additional observations from a re-analysis of the deposited data

How the results depend on the processing

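Of the 9 genes, only Cd247 was called under any alternative. DESeq2 with the GC and length offset called it lower, against 3.43% of all genes. Without CCL19 replicate 3 it was called lower in edgeR, against 6.97% of all genes, and in DESeq2, against 8.12%. The 9 genes gave 0 calls under all other alternatives, so the range over left-out libraries was 0 to 1. Their median log2 fold change was -0.10 with the offset in edgeR and in DESeq2, and with a library left out between -0.11 and -0.01 in edgeR and between -0.10 and -0.01 in DESeq2. The sign turned for Lat with the offset (0.08 in both tools), for Cd3e without CCL19 replicate 2 (0.01; range over left-out libraries -0.06 to 0.01 in edgeR and -0.05 to 0.01 in DESeq2), and for Cd28 (range -0.09 to 0.03) without CCL19 replicate 2 (0.03), without no-CCL19 replicate 1 (0.02 in edgeR, 0.01 in DESeq2) and without no-CCL19 replicate 3 (0.01 in edgeR, 0.02 in DESeq2). Lck, at 0, was -0.02 without CCL19 replicate 3 and -0.03 without no-CCL19 replicate 3 in edgeR. None of these was called. Of the 9 estimates, between 5 and 8 were below 0 with a library left out, 8 with no filter or a 1 CPM filter, and 6 with the offset. The difference in the log2 ratio of Cd28 to Cd3e lay between -0.04 and 0.06 with a library left out, turning without CCL19 replicate 3 (-0.02) and without no-CCL19 replicate 2 (-0.04). That of Cd247 to Cd3e lay between -0.27 and -0.10. Over all genes, calls numbered 0 in edgeR, 1168 in DESeq2, 1600 in edgeR with no filter, 529 with a robust prior and 928 in DESeq2 with the offset, and with a library left out between 0 and 1599 in edgeR and between 55 and 1704 in DESeq2. Of genes with an adjusted p, 6.55% were called higher and 5.6% lower in DESeq2. These shares were 5.05% and 5.01% with no filter, 2.29% and 2.25% with a robust prior, and 6.87% and 3.43% in DESeq2 with the offset. In the list of 41 signalling genes calls numbered 0, 8, 10, 2 and 7 in the same settings as over all genes. With a library left out they lay between 0 and 11 in edgeR and between 0 and 15 in DESeq2. Both highest counts came without CCL19 replicate 3. There edgeR called 6.5% of all genes higher and 6.97% lower, and DESeq2 9.2% and 8.12%. The cause of the differences between settings was not tested. With a replicate block, edgeR called 0 genes, 0 of the 9 and 0 of the 41, and Cd247 had a log2 fold change of -0.25 (edgeR adjusted p = 0.214). The correlation between the deviations of libraries with equal replicate numbers was -0.164, 0.0814 and -0.0207 for replicates 1, 2 and 3. With 3 libraries a group, these values cannot show whether equal numbers share a mouse or a culture. The exact sign-flip test over pairs cannot go below 0.25. Depth limits little here, since counting error at the lowest count of any of the 9 genes was 1.66%, below the spread between libraries.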
